A study of Mus musculus with 6 samples.

Results

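A set of 9 transcriptional regulators of the dermomyotome was followed, namely Pax3, Pax7, Dmrt2, Sim1, Eya1, Eya2, Six4, Myf5 and Lbx1. All array probes carrying one of these 9 gene names were taken, which gave 11 of the 41174 probes on the array. The 7 genes other than Myf5 and Lbx1 had a probe above background and entered the test of 19345 genes. The study compared Paraxis-/- embryos with wild-type (WT) embryos at embryonic day 9.5, Paraxis being a basic helix-loop-helix (bHLH) protein that the gene Tcf15 encodes, and C57BL/6J is the strain given for both genotypes. How the Paraxis-/- allele disrupts Tcf15 is not given in the labels. Each of the 3 Paraxis-/- and 3 WT pools held anterior presomitic mesoderm and somites I-IV from 5 embryos, with no sort of cells named in the labels. A Paraxis-/- pool and a WT pool shared 2 Agilent arrays of opposite dye orientation, which made 3 independent pairs. Pair A joined Paraxis-/- A with WT A, pair B joined Paraxis-/- C with WT B, and pair C joined Paraxis-/- B with WT C. Pair A was on slide 1, and pairs B and C were on slide 2.

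The dermomyotome is the dorsal epithelial sheet of the somite, from which skeletal muscle and dermis arise. Pax3 and Pax7 are paired-box proteins of its muscle precursors, and Six4 and its relatives act with Eya cofactors upstream of the myogenic bHLH genes. In the mouse, Dmrt2 lies downstream of Pax3 and acts on an enhancer of Myf5, the first myogenic bHLH gene of the myotome. Lbx1 marks the precursors that migrate into the limb, and Sim1 marks the lateral dermomyotome.

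The probes that read these genes are shown first, because every value below rests on 1 or 2 probes of 60 bases a gene. The first 30 bases are given 5′ to 3′, as the array files list them, for the genes with the most negative ratios, for the gene pair Eya1 and Eya2, and for Myf5.
Dmrt2: caaattgtaagggtctgtgctttacacagc
Eya2: ttggccgcaaagctgtctacattgtgatag
Pax3, repeated probe: aaatattagtctcgatcctttgataccgtg
Pax3, dim probe: agccagcagtcatatatcctctcttatttc
Eya1, bright probe: aaatggccagtgttgagacctcttcatttg
Eya1, dim probe: atccagtgaaagtaagccatgagaatgttc
Myf5: ttgtatatgccttaaaataacttgataaat
In mm9, the build of the file headers, the plus-strand probes are Dmrt2 at chr19:25753414-25753473, Eya2 at chr2:165594761-165594820 and Sim1 at chr10:50708865-50708924. On the minus strand lie the repeated Pax3 probe at chr1:78099476-78099535, the dim Pax3 probe at chr1:78180183-78180242, the bright Eya1 probe at chr1:14159153-14159212 and the dim Eya1 probe at chr1:14160732-14160791. Also on the minus strand lie Pax7 at chr4:139294364-139294423, Six4 at chr12:74201609-74201668, Myf5 at chr10:106919974-106920033 and Lbx1 at chr19:45307928-45307987. The files place no probe within an exon, intron or untranslated region. No run of more than 8 bases was shared in any of the 55 comparisons among the 11 probes, Eya1 with Eya2 and Pax3 with Pax7 included.

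Ratios are given as log2 of Paraxis-/- over WT. Tcf15 itself had ratios of -5.23, -5.48 and -5.52 in pairs A, B and C and fell by 5.41 (SE 0.09, limma adjusted p = 0.000536, n = 3 pairs). Whether its probe reads a part of the gene that the allele changes is not stated. Levels are log2 signals of a pool, averaged over its 2 arrays. Levels of different probes are not comparable with each other. Of the 13 paraxial mesoderm markers other than Tcf15, 12 were tested, and their mean level was 10.33, 10.11 and 10.29 in the Paraxis-/- pools of pairs A, B and C, against 9.91, 10.44 and 10.45 in the WT pools. The WT pool of pair A stood below the others, and the median ratios of these markers were 0.36, -0.26 and 0.06. Of these 12 markers, 2 were negative in all 3 pairs, against 12.2% of all genes, and 1 was positive in all 3, against 13.5%. The negative ones were Uncx, with ratios of -0.63, -0.80 and -0.92, and Tbx18, with -1.31, -0.82 and -0.93. The positive one was Lfng, with 0.31, 0.09 and 0.29. The part of these markers in the member ratios was not tested. Tbx6, a T-box gene of the presomitic mesoderm picked after its values were seen, had 12.46, 12.10 and 12.90 in the Paraxis-/- pools, against 10.03, 12.69 and 12.68 in the WT pools. No spot of the members was saturated. In pooled tissue, fewer cells of a type and less RNA per cell cannot be told apart.

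Dmrt2, Eya2 and Pax3 had the most negative ratios of the network, and Eya1 was nearly level. None of the 7 tested members passed the adjusted threshold of 0.05 in limma, which 0.0207% of all tested genes did, 0.0103% with a lower and 0.0103% with a higher value. At an unadjusted p under 0.05 there were 4 members, against 5.08% of all genes. These 4 (Eya2, Dmrt2, Pax3 and Sim1) had negative ratios, against 2.73% of all genes, and none with a positive ratio, against 2.35% of all genes. The ratio was negative in all 3 pairs for 6 of the 7, Pax7 being the exception, against 12.2% of all genes. These 6 include Eya1, which was nearly level at -0.01, -0.02 and -0.01 and whose dim probe did not share a sign among pairs. In 3 of the 7 (Dmrt2, Eya2 and Pax3) every Paraxis-/- pool lay below every WT pool, as in 2.87% of all genes, and no member had the opposite order, which 3.1% of all genes had. The members were chosen with earlier results of these arrays known, so these shares describe them and do not test the list. The median log2 ratio of the 7 was -0.26, with pair medians of -0.70, -0.26 and -0.33 in A, B and C, while the median of all genes was 0.00. The probes of these 7 were detected in every one of 6 measurements per genotype.

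**Figure D1:**
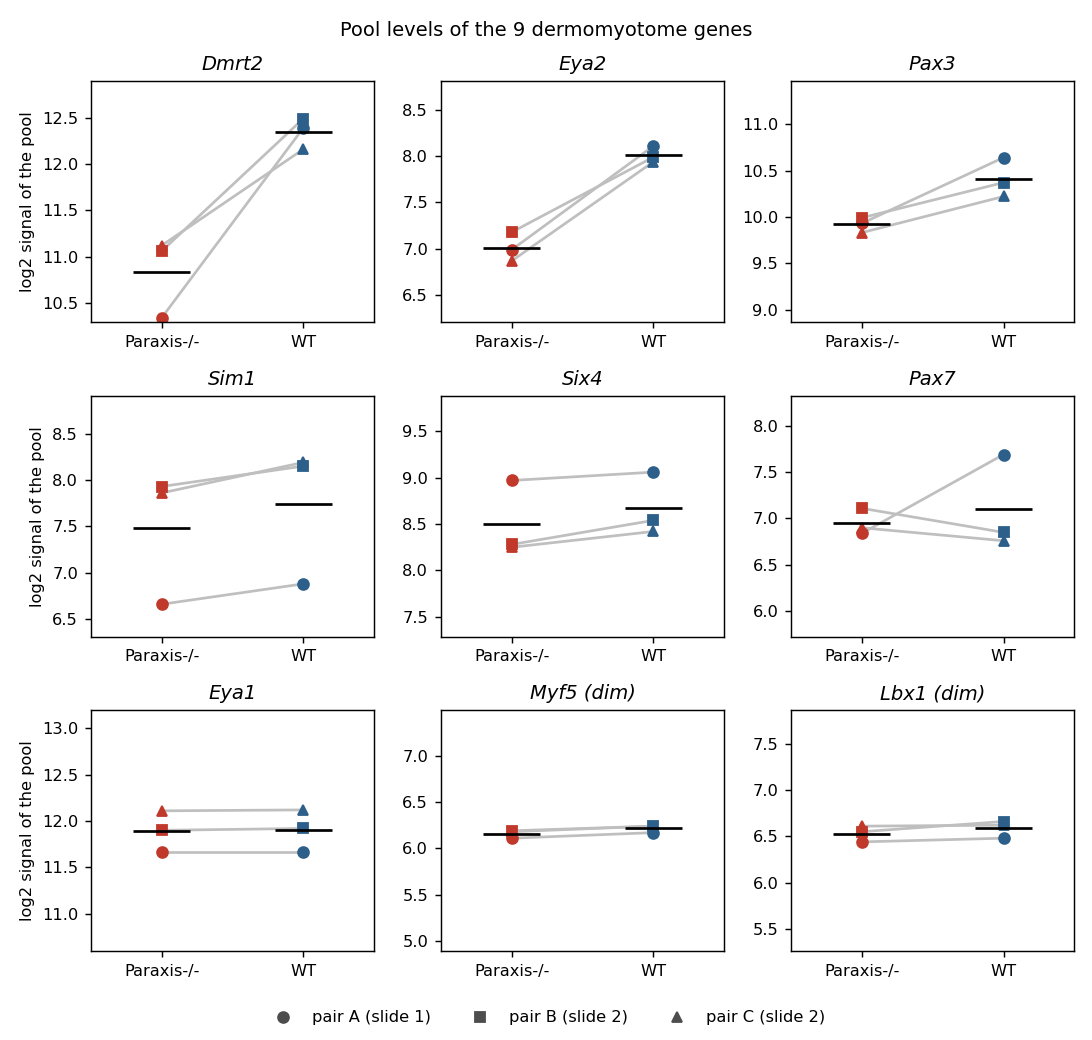
Log2 signal of each pool (y axis, each panel spanning the same range of log2 units) for the 9 genes, with Paraxis-/- pools left and WT pools right; grey lines join pools of a pair, marker shapes are pairs A, B and C, and black bars are means of 3 pools. For Dmrt2, Eya2 and Pax3 all Paraxis-/- pools lie below all WT pools, Eya1 is flat, and Myf5 and Lbx1 are too dim to compare.

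Dmrt2, a DM-domain transcription factor of the early dermomyotome, showed the most negative ratio. Its level was 10.34, 11.06 and 11.12 in the Paraxis-/- pools of pairs A, B and C, against 12.39, 12.49 and 12.16 in the WT pools. The groups did not overlap, and the gap between the highest Paraxis-/- and the lowest WT pool was wider than the spread within either genotype. The mean was 10.84 ± 0.43 in Paraxis-/- and 12.35 ± 0.17 in WT tissue (SD, n = 3 pools each). The log2 ratios of pairs A, B and C were -2.05, -1.43 and -1.04. The mean ratio of -1.51 (SE 0.20, limma adjusted p = 0.359) is 2.84-fold lower in Paraxis-/- tissue, and 6 of the 19345 tested genes had a more negative one. On single arrays the ratio of Dmrt2 ran from -2.14 to -1.03, and both dye orientations of a pair differed little. With slide as a block the adjusted p was 0.0322 in limma, and within slide 2 alone (pairs B and C) the ratio was -1.24 with an adjusted p of 0.16. Slide 1 held pair A alone, so the residual spread with slide as a block came from pairs B and C only. Over 14 alternatives the limma adjusted p of Dmrt2 lay between 0.00423 and 0.992. The lowest value came from 6 arrays with no replicate block, a fit that counts dye swaps as replicates.

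Eya2, a phosphatase and cofactor of Six4 and its relatives, was the member with the smallest p. Its level was 6.99, 7.18 and 6.87 in the Paraxis-/- pools of pairs A, B and C, against 8.11, 7.99 and 7.94 in the WT pools. The Paraxis-/- pools lay well below the WT pools without overlap. Means were 7.01 ± 0.16 in Paraxis-/- and 8.01 ± 0.09 in WT tissue (SD, n = 3 pools each). The pair ratios were -1.12, -0.81 and -1.07, and their mean of -1.0 (SE 0.09, limma adjusted p = 0.179) is 2.0-fold lower in Paraxis-/- tissue. The spot was dim, with raw Cy3 signals of 91, 77 and 65 in the Paraxis-/- pools of pairs A, B and C, over local backgrounds of 33, 33.5 and 33. With Agilent processed signals, in place of median signals with normexp and loess, the log2 ratio was -1.77 (limma adjusted p = 0.127). Eya2 passed at a limma adjusted p of 0.0422 after scaling between arrays and of 0.0488 with slide as a block. The residual spread of the slide fit came from pairs B and C alone. Over 14 alternatives the limma adjusted p of Eya2 lay between 0.00189 and 0.992. Its lowest value came from 6 arrays with no replicate block, where dye swaps count as replicates. Within slide 2 alone (pairs B and C) the ratio was -0.94 with a limma adjusted p of 0.201. Its probe lies on the same chromosome as Tcf15, 13.6 Mb away, whereas those of the other 6 tested members lie on other chromosomes.

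Eya1, the paralogue of Eya2, gave nearly identical levels in both genotypes. The bright probe read 11.67, 11.90 and 12.11 in the Paraxis-/- pools of pairs A, B and C, against 11.67, 11.92 and 12.12 in the WT pools. The pools of a pair thus tracked each other closely while the pairs differed. The pair ratios were -0.01, -0.02 and -0.01, with a mean of -0.01 (SE 0.06, limma adjusted p = 0.994). The dim Eya1 probe had pair ratios of -0.12, 0.01 and 0.08. The log2 ratio of Eya2 minus that of Eya1 was -1.11, -0.79 and -1.07 in pairs A, B and C, with a mean of -0.99 ± 0.17 (SD, n = 3 pairs). For this difference the exact sign-flip test, two-sided, reached p = 0.25, and a lower value is not possible with 3 pairs.

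Six4, a homeobox partner of the Eya cofactors, had slightly negative ratios. Levels were 8.97, 8.28 and 8.25 in the Paraxis-/- pools of pairs A, B and C, and 9.06, 8.54 and 8.42 in the WT pools. The genotypes overlapped, because pair A on slide 1 read higher in both. The pair ratios of -0.09, -0.26 and -0.16 gave a mean of -0.17 (SE 0.07, limma adjusted p = 0.951).

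Pax3 was measured most densely, since its main probe was spotted 10 times on each array. The level was 9.93, 9.99 and 9.83 in the Paraxis-/- pools of pairs A, B and C, against 10.64, 10.37 and 10.22 in the WT pools. The Paraxis-/- pools were closely grouped and all below the WT pools. Means were 9.92 ± 0.08 in Paraxis-/- and 10.41 ± 0.21 in WT tissue (SD, n = 3 pools each). The pair ratios of -0.70, -0.39 and -0.39 had a mean of -0.49 (SE 0.09, limma adjusted p = 0.572), or 1.41-fold lower. The dim Pax3 probe, which rests on a cDNA clone, had ratios of -0.26, -0.32 and -0.03, with a mean of -0.21. Both probes therefore had negative ratios in all 3 pairs with different sizes, but the dim probe was near 0 in pair C, at -0.06 and 0.00 on its arrays. The raw Cy3 signals of the dim probe were 104, 65 and 80 in the Paraxis-/- pools of pairs A, B and C, over local backgrounds of 43, 34 and 30.5.

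The repeated Pax3 spots separate the error within an array from that between arrays. The SD over the spots of an array was between 0.04 and 0.08. The 2 arrays of pair A, which hold the same RNA with dyes exchanged, gave -1.29 and -0.11. Those of pair B gave -0.62 and -0.16, and those of pair C gave -0.45 and -0.33. The array with Paraxis-/- RNA in Cy3 was the more negative one in every pair. The gap between the 2 arrays was larger than the SD over spots in every pair, and it was smallest in pair C. An effect of dye and one of array cannot be told apart within a pair. The mean dye effect on this probe, taken as the difference between a pair's arrays divided by 2, was 0.29, against a median absolute dye effect of 0.07 over all tested genes. Each pair holds both dye orientations once, so its mean is balanced for dye.

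**Figure D2:**
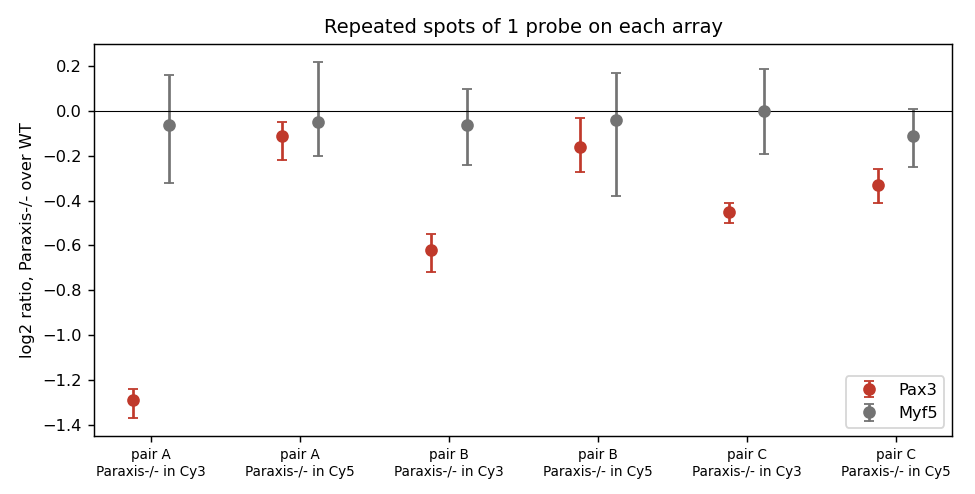
Log2 ratio on each of the 6 arrays (x axis) for the Pax3 and Myf5 probes that were spotted 10 times; points are means over the spots used and bars run from the lowest to the highest spot. Pax3 is below 0 on every array, with -1.29 and -0.11 on the arrays of pair A, while Myf5 spots scatter about 0.

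Pax7, the paralogue of Pax3, did not share a direction among pairs. Its level was 6.84, 7.11 and 6.90 in the Paraxis-/- pools of pairs A, B and C, against 7.69, 6.85 and 6.76 in the WT pools. The WT pool of pair A stood above the other 5 pools, which lay within a narrow band. The ratios of pairs A, B and C were -0.85, 0.26 and 0.13, with a mean of -0.15 (SE 0.23, limma adjusted p = 0.977). Without pair A the mean was 0.20. The spot was dim, with raw Cy3 signals of 160, 53 and 51 in the WT pools of pairs A, B and C, over local backgrounds of 40, 33 and 31.5. The ratio of Pax3 minus that of Pax7 was 0.15, -0.65 and -0.52 in pairs A, B and C, with p = 0.5 in the same exact test.

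Pax3 and Pax7 are also expressed in the dorsal neural tube and neural crest, and markers of both tissues were counted. The 12 tested neural tube markers, of 13 listed, had median ratios of -0.24, 0.14 and 0.20 in pairs A, B and C. The 8 neural crest markers, all tested, had median ratios of -0.48, 0.30 and 0.31. These lists thus had the signs of Pax7 in every pair. The same signs were found for the endothelial list below. They were also found for a list of other dermomyotome and muscle precursor regulators, with medians of -0.22, 0.08 and 0.05. The part of any of these lists in the Pax7 values was not tested. The mean level of the neural tube list ran from 9.20 to 9.5 in Paraxis-/- and from 9.18 to 9.67 in WT pools, and that of the neural crest list from 9.91 to 10.30 in Paraxis-/- and from 9.89 to 10.44 in WT pools. Pax3, Dmrt2, Eya2 and Sim1 had negative ratios in all 3 pairs. Those of Pax3 (-0.70), Dmrt2 (-2.05) and Eya2 (-1.12) were most negative in pair A, and that of Sim1 (-0.33) in pair C. In pairs B and C 6 of the 7 members were negative in both, against 23.6% of all genes. These 6 include Eya1, at -0.02 and -0.01. The 7 intermediate mesoderm markers had medians of 0.15, 0.08 and -0.03, and the 7 tested lateral plate markers, of 8 listed, had -0.02, 0.16 and -0.02. The 10 primitive blood markers had medians of 0.50, 0.97 and -0.09, and the mean level of the 6 tested yolk sac markers, of 7 listed, was 8.09 to 8.29 in Paraxis-/- and 7.09 to 7.98 in WT pools. The 8 tested surface ectoderm markers, of 9 listed, had medians of 0.43, 0.09 and 0.11, and their mean level was 10.38 to 10.47 in Paraxis-/- and 9.87 to 10.38 in WT pools. The 6 tested gut endoderm and notochord markers, of 7 listed, had medians of 0.44, 0.00 and 0.38, and a mean level of 9.35 to 9.62 in Paraxis-/- and 8.95 to 9.37 in WT pools. The 8 endothelial markers had medians of -0.25, 0.14 and 0.15, and a mean level of 9.44 to 9.70 in Paraxis-/- and 9.37 to 9.48 in WT pools. No marker of any list other than Tcf15 passed over all genes, and the part of these tissues in the member ratios was not tested.

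**Figure D3:**
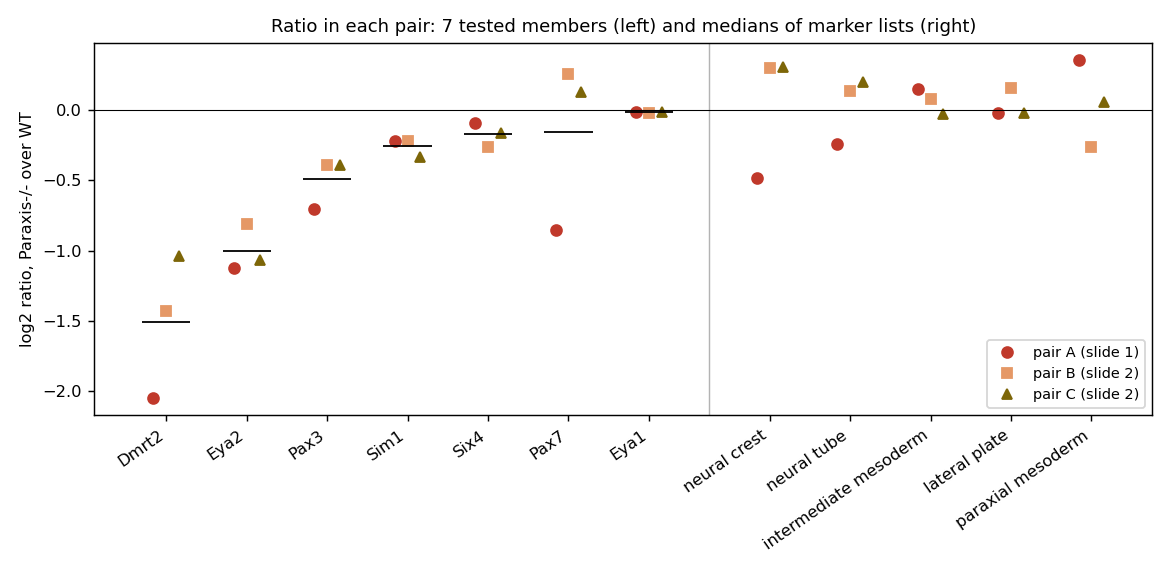
Log2 ratio of each pair (y axis) for the 7 tested members, with black bars at the mean of 3 pairs. Right of them are median ratios in the same pairs for neural crest, neural tube, intermediate mesoderm, lateral plate and paraxial mesoderm markers. Pax7 and the neural lists are below 0 in pair A and above 0 in pairs B and C. The endothelial list, not shown, had the same signs. Dmrt2, Eya2, Pax3, Sim1 and Six4 are below 0 in all pairs.

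Sim1, a bHLH-PAS factor, had a small and even ratio. Its level was 6.66, 7.93 and 7.86 in the Paraxis-/- pools of pairs A, B and C, against 6.88, 8.15 and 8.19 in the WT pools. The genotypes overlapped because both pools on slide 1 read well below those on slide 2, while within each pair the Paraxis-/- pool was lower. The pair ratios of -0.22, -0.22 and -0.33 gave a mean of -0.26 (SE 0.07, limma adjusted p = 0.866), or 1.2-fold lower. With Agilent processed signals the ratio was -0.49. In pair A the raw Cy3 signal was 69.5 in the Paraxis-/- pool over a local background of 40.5. The Sim1 probe has a GC content of 23.3%, which is reached or undercut by 2.02% of all probes.

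Myf5 and Lbx1, both targets downstream of Pax3 in the mouse, could not be compared. The Myf5 probe was spotted 10 times on each array, and of 60 spots 1 was well above background in the Paraxis-/- channel and 2 in the WT channel. Its mean ratio on single arrays lay between -0.11 and 0.00, with spots from -0.38 to 0.22, and the SD over its spots was 0.10 to 0.15. The GC content of this probe was 15.0%, a value that 0.107% of all probes do not exceed, against a median of 40.0%. Lbx1 was well above background in 3 of 6 measurements of either genotype, under the minimum of 4. Its pair ratios were -0.04, -0.10 and -0.01, with levels between 6.44 and 6.61 in Paraxis-/- and between 6.48 and 6.66 in WT pools. No fold is given for either gene, and no statement on their expression follows from these spots.

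Relatives and partners of the members were then examined from 3 lists. Among 17 tested relatives of the Pax, Six4, Eya, Dach and Dmrt families, of 22 listed, 1 fell over all genes and none rose. This was Pax1, a paired-box gene of the sclerotome, which fell by 4.35 (SE 0.13, limma adjusted p = 0.00465) on the log2 scale and lies 4.77 Mb from Tcf15. The median of the list was 0.00, as over all genes. Besides Pax1 no relative had an unadjusted p under 0.05, which 5.08% of all genes had. Six2, a homeobox gene, had -0.15, Lbx2, a ladybird homeobox gene, had 0.10, and Pax9, a sclerotome gene, had -0.51 from pair ratios of -1.74, 0.15 and 0.06.

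Among 22 tested regulators and markers of dermomyotome and muscle precursors, of 26 listed, none passed over all genes, 3 had a negative and 1 a positive ratio at an unadjusted p under 0.05, and the median was 0.00. Meox2, a homeobox gene of somite and limb muscle, had pair ratios of -2.0, -1.53 and -1.25 (mean -1.59, SE 0.15, limma adjusted p = 0.188). Ebf2, a helix-loop-helix factor of the early B-cell factor family, had -1.56, -0.73 and -0.92 (mean -1.07, SE 0.17, limma adjusted p = 0.495). Cdh15, the muscle cadherin, had -1.27, -0.19 and -0.35. In 3 of the 22 (Meox2, Ebf2 and Cdh15) every Paraxis-/- pool lay below every WT pool, against 2.87% of all genes, and 4 of the 22 were negative in all pairs, against 12.2% of all genes. The opposite order was found in 1 of the 22, against 3.1% of all genes, and 1 was positive in all pairs, against 13.5%. Meox1, the close relative of Meox2 and picked after its value was seen, had ratios of 0.31, -0.02 and 0.43.

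Signals known to act on Pax3, Myf5 and the dermomyotome formed the remaining list, with 21 tested genes besides Tcf15 and a median of 0.03. None passed over all genes. At an unadjusted p under 0.05 there were 2 with negative ratios, against 2.73% of all genes, and 3 with positive ratios, against 2.35%. Bmp7, a bone morphogenetic protein, had pair ratios of 0.45, 0.29 and 0.28. Ptch1, the hedgehog receptor and target, had 0.34, 0.32 and 0.23. Twist1, a bHLH factor of mesenchyme, had -1.50, -0.38 and -0.39. Bmp7 and Ptch1 were even over the pairs, whereas Twist1 was most negative in pair A (mean -0.76).

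The genes whose levels over the 6 pools were most like those of Dmrt2 and Eya2 were taken from all tested genes by the root-mean-square (RMS) difference of centred log2 levels. The nearest to Dmrt2 was Meox2 (RMS 0.124), followed by Tdrd7, a tudor-domain gene (0.185), and Itih5, a gene of a hyaluronan-binding matrix protein (0.187). The nearest to Eya2 was Zcchc3, a zinc-finger gene (RMS 0.0973), followed by Fmod, the proteoglycan fibromodulin (0.142), and a transcript known by the clone name 4930477O03Rik (0.144). Zcchc3 had pair ratios of -1.26, -0.99 and -1.03 and lies 0.264 Mb from Tcf15. The likeness is a description over 6 pools that share 6 arrays, and none of these 6 genes passed over all genes (limma adjusted p between 0.126 and 0.497).

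Paraxis is a bHLH protein, and proteins of this class bind E-boxes, written CANNTG. RefSeq promoters of build GRCm38.p6 were given for 5 of the 9 members (Dmrt2, Pax7, Sim1, Six4 and Myf5). The motif reads the same on both strands, and overlaps were counted. The 250 bases before the start of Dmrt2, chr19:25672161-25672410 on the plus strand, and of Sim1, chr10:50895401-50895650 on the plus strand, are shown because Dmrt2 had the most negative ratio and Sim1 was the one member whose window held the motif; E-boxes are in capitals.
Dmrt2: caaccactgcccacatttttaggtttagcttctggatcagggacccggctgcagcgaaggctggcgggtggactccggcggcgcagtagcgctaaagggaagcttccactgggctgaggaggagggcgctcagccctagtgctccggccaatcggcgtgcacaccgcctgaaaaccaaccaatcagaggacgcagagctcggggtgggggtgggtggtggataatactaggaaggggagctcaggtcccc
Sim1: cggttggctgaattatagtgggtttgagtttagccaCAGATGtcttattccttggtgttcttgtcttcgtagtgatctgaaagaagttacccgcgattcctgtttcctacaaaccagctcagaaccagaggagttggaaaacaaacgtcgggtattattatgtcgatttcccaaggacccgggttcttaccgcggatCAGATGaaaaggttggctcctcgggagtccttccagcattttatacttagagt
The Dmrt2 window holds no E-box, and the Sim1 window holds 2, both spelled CAGATG, starting 214 and 53 bases before the start. The 5 members have 6 such windows, since Six4 has more than 1 start. Of the 6 windows 1 holds an E-box, while 66.2% of 32851 windows of this length hold one. A match in such a window is a description of letters, and its absence says nothing about binding elsewhere.

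**Figure D4:**
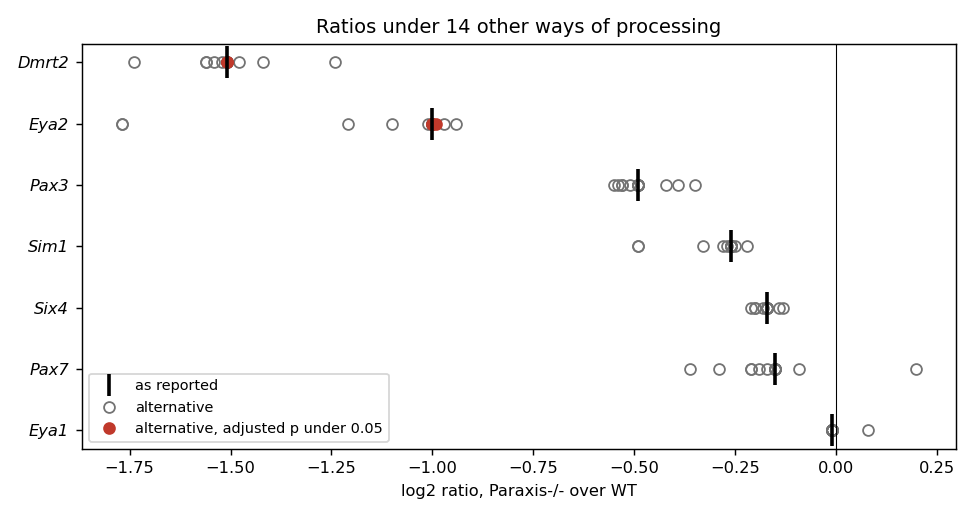
Log2 ratio of the 7 tested members (rows) as reported (black bar) and under 14 alternatives (circles); filled red circles passed an adjusted p of 0.05 in limma. For Dmrt2 and Eya2 the red circles include the fit that counts dye swaps as replicates. Dmrt2 ran from -1.74 to -1.24 and Eya2 from -1.77 to -0.94, Pax3, Sim1 and Six4 stayed below 0, and Pax7 and Eya1 crossed 0 once each.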

How the data were processed

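Spot intensity was deposited by the authors as Agilent Feature Extraction output, 10.7.3.1 (slide 1) and 10.5.1.1 (slide 2) per the file headers. The version in the submitters' processing notes is 8.5.1.1. The deposited log10 ratios of Cy5 over Cy3 matched those of the scanner files within 5e-11, and each column had a median of 0. Per the labels, 250 ng of RNA with an integrity number of at least 7.9 was labelled.

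Median signals were corrected with normexp (offset 50), using local background, and normalized by loess in limma 3.58.1 (R 4.3.3, jsonlite 2.0.0, and the data.table package, version 1.17.8), with 1639 control spots and outlier spots (438 to 620 an array) at zero weight. Figures and motif counts used Python 3.11.15 with pandas 2.3.3, numpy 2.4.6 and matplotlib 3.10.9. Outlier spots were left out, repeated spots averaged, ratios turned to Paraxis-/- over WT, and the dye-swapped arrays of a pair averaged. Levels came from loess and Aquantile values.

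Titles and descriptions disagree on the pools of 2 arrays. The titles were used: arrays of the same titled pair had deviations correlated at r of 0.42, 0.63 and 0.64 across genes, and other combinations lay between -0.44 and -0.12.

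Probes well above background in at least 4 of 6 measurements of a genotype were kept (28413 of 41174), and the brightest stood for its gene. Names came from slide 1's files, updated through RefSeq (26690 probes by accession, 5189 by symbol, 952 by synonym, 8343 kept). Pair ratios of 19345 genes (65 with fewer than 3 pairs) were tested two-sided against 0 (lmFit, eBayes), and p-values were adjusted by Benjamini and Hochberg. The labels call the pools biological replicates. Named genes are the members, Tcf15, the 4 smallest p of each list (1 is not reported here) and the 3 genes most like the members of smallest p. Tbx6, Uncx, Tbx18, Lfng, Meox1, Myog, Myf6, Myod1 and Dbx1 were picked after their values were seen. Members and lists were chosen with earlier results of these data known.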

Additional observations from a re-analysis of the deposited data

How the results depend on the processing

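Over 14 alternatives Dmrt2, Eya2, Pax3, Sim1 and Six4 kept a negative ratio. The Agilent processed signals and the deposited ratios, counted separately among the 14, gave the same values and are not distinct checks. Eya1 reversed to 0.08 with median centring, and Pax7 reversed to 0.20 without pair A (and was -0.36 without pair B). In the fit reported, 4 of 19345 genes and none of the members passed an adjusted p of 0.05 in limma. Of the 4 genes 2 were lower and 2 higher. The number of genes was 18 after scaling between arrays (14 lower, 4 higher), 6 with Agilent processed signals or the deposited ratios, 44 with slide as a block and 91 with no replicate block over 6 arrays, a fit that counts dye swaps as replicates. With 1 pair left out it was between 0 and 2, with 2 lower and 0 higher without pair A or pair C, and the 0 being without pair B, where 730 genes had an unadjusted p under 0.05. Among the members 1 (Eya2) passed after scaling, and 2 (Dmrt2 and Eya2) passed with slide as a block and 2 (the same) with no replicate block over 6 arrays. With pools unpaired, likewise no replicate block, 3 genes and no member passed. The cause of these differences was not tested. The member median ran from -0.49 to -0.17. With slide as a block the residual spread came from pairs B and C only, since slide 1 held pair A alone. Signal near background limits Eya2, Pax7, Sim1, Myf5, Lbx1 and the dim probes of Pax3 and Eya1.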

Other observations

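Myog, the bHLH gene that is switched on as muscle precursors differentiate, differed in sign among the pairs and was picked after its values were seen. Its level was 6.96, 9.37 and 8.28 in the Paraxis-/- pools of pairs A, B and C, against 9.62, 7.33 and 6.73 in the WT pools. The ratios of pairs A, B and C were -2.65, 2.04 and 1.55, so the mean of 0.31 (SE 0.95, limma adjusted p = 0.991) describes no pair. Myf6, a bHLH gene of differentiating muscle, had -0.69, 0.61 and 0.68. Myod1, a bHLH gene of myoblast commitment, had -0.05, 0.11 and -0.04. Both were also picked after their values were seen.

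A ratio at least 2-fold lower in pair A and at least 2-fold higher in pairs B and C was met by 2 of the 19345 tested genes, and the reverse by 0. The 2 genes were Myog and Dbx1, a homeobox gene of neural tube progenitors, with ratios of -2.12, 1.08 and 1.31. Dbx1 was on the neural tube list. This fold and pattern were chosen after the values of Myog were seen. Pax7 followed the same signs at -0.85, 0.26 and 0.13. Pair A was the one pair on slide 1, so pair and slide cannot be told apart for these values.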
